A study of Homo sapiens with 32 samples.

Results

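Transcript levels of untreated p53-knockout U2OS cells were set against those of untreated wild-type cells across all genes. U2OS is a human osteosarcoma line that carries wild-type p53. Both groups received only DMSO, the solvent of the study's drug, for 24 h. The knockout group (KO) was edited with CRISPR-Cas9 to make no p53, and the wild-type group (WT) kept both intact alleles. Each group held 4 poly-A RNA libraries from separate plates, 8 of the 32 libraries of the series. The labels do not give the number of edited clones or the edit itself, so the loss of p53 and other differences between the lines cannot be told apart, and p-values measure the spread between plates. Further groups appear below as context: the same 2 lines after 24 h of etoposide at 20 µM, a topoisomerase II poison that breaks DNA, and cells with the p53 change A347D on 1 allele (HET) or on both (HOM).

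p53 is a transcription factor that binds DNA as a tetramer and switches on genes of cell cycle arrest, cell death, DNA repair and metabolism. In unstressed cells it is kept scarce by MDM2, a ubiquitin ligase whose own gene is a p53 target. A small amount of p53 nonetheless keeps some of its targets transcribed without damage, and the comparison of KO with WT in DMSO bears on that basal layer.

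Of 35587 gene symbols in the deposited matrix, 14949 had at least 10 normalized counts in at least 4 of the 8 libraries and were tested. Differences are given as KO minus WT on the scale of log2(normalized count + 1), each with its standard error (SE) from the fit, and a gene was called at an adjusted p below 0.05 and a change of at least 1.5-fold. By that rule 396 genes (2.65%) were higher and 732 (4.9%) were lower in KO, with a median difference of 0.02 over all tested genes. Most changes were moderate: 219 of the higher and 382 of the lower genes changed by less than 2-fold, while 4 higher and 45 lower genes changed by more than 8-fold. The KO libraries held 21.3 to 23.0 M counts and the WT libraries 23.3 to 24.2 M, and mtDNA-encoded transcripts took 11.4% to 14.6% of the counts in KO and 10.1% to 15.2% in WT. Where a transcript is lower in bulk RNA, fewer cells that express it and less RNA per cell cannot be told apart.

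**Figure D1:**
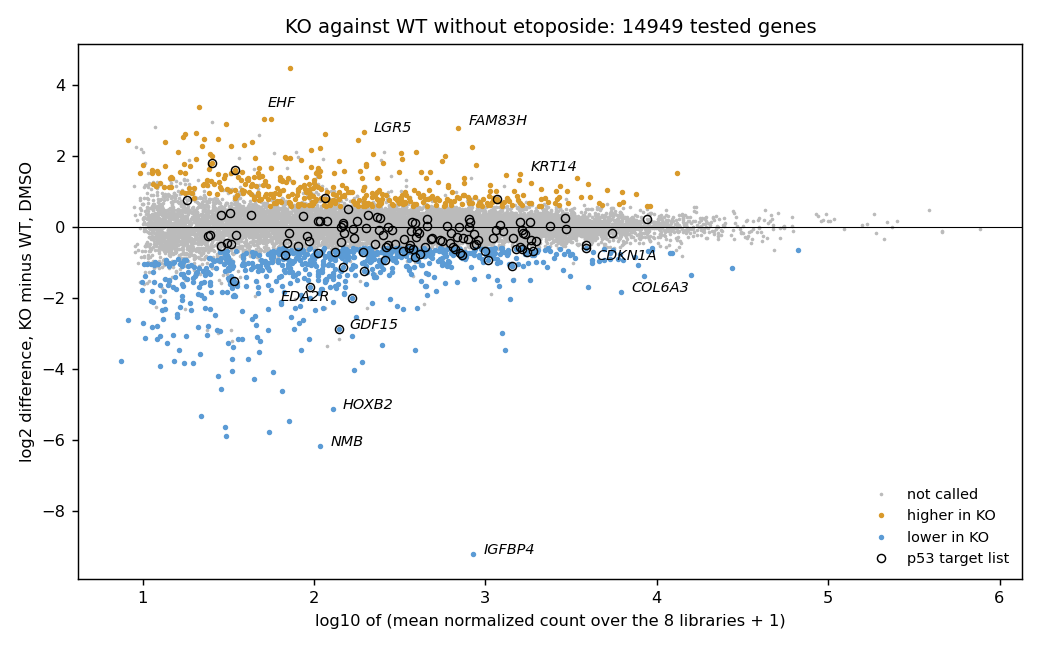
Log2 difference, KO minus WT in DMSO, against mean expression over the 8 libraries for the 14949 tested genes. Each point is a gene, coloured where it was called higher (396) or lower (732) in KO, and open circles mark the p53 target list; the points farthest from 0 lie below the line, with IGFBP4 at -9.22.

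Among p53 target genes the basal differences ran mostly downward in KO and were small. Of 133 targets on the list, 121 were tested, 26 were lower and 3 were higher, against 4.9% and 2.65% of all tested genes. The median difference of the 121 was -0.29, and 87 of them were below 0. Dropping the fold limit gave 40 lower and 3 higher targets.

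Arrest genes had the densest share, with 7 of 13 tested members lower. CDKN1A, the gene of the cyclin-dependent kinase inhibitor p21, had 2741, 3289, 2947 and 3277 normalized counts in KO and 5513, 3830.4, 4426 and 4833 in WT. The groups did not overlap, yet KO kept most of the transcript, with a difference of -0.59 ± 0.12 (adjusted p = 0.0082). This lies just past the fold limit, and CDKN1A was not called without KO replicate 1 or 3, without WT replicate 1 or 4 or with quantile normalization (-0.58 to -0.51). ZMAT3, an RNA-binding tumour suppressor, had 331, 293, 309.8 and 282 in KO, against 489.9, 528, 593 and 463 in WT (-0.76 ± 0.11, adjusted p = 0.00115). BTG2, an antiproliferative factor that promotes mRNA deadenylation, had 489.6, 561, 532 and 543 in KO, against 1051, 779, 878 and 851 in WT (-0.73 ± 0.11). GADD45A, a growth arrest and DNA damage protein, differed by -0.71 ± 0.13, and the polo-like kinases PLK2 and PLK3 by -0.69 ± 0.15 and -0.62 ± 0.13. In all of these the KO libraries lay below every WT library, as they did in 10.9% of all tested genes, while the reverse held in 7.41%. PLK3 lost its call without KO replicate 1 or WT replicate 1, and PLK2 without WT replicate 3 or with array weights, which also ended the call of GADD45A (-0.54). SERTAD1 was the remaining lower arrest gene (-0.63 ± 0.11, not called without KO replicate 1 or WT replicate 3), whereas SFN (14-3-3 sigma) at 0.22 ± 0.13 and the repressor E2F7 at 0.00 ± 0.10 were not called.

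None of the 7 feedback genes was called lower in limma (2 at an unadjusted p below 0.05, 0 with voom), and 1 was higher. MDM2 had 313, 252, 255 and 261 normalized counts in KO, against 354, 388, 188 and 256 in WT. All KO values lay inside the WT range (-0.09 ± 0.21, adjusted p = 0.837). PPM1D, a phosphatase that restrains p53 signalling, differed by -0.37 ± 0.09 with no overlap (adjusted p = 0.0291) but stayed under the fold limit. CCNG1, a cyclin that recruits a phosphatase to MDM2, was at -0.40 ± 0.15 (adjusted p = 0.121). SUSD6 went the other way, with 1494, 1300.1, 1503 and 1606 in KO and 1065, 844, 729 and 805 in WT (0.79 ± 0.12, adjusted p = 0.00199).

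Of 15 tested cell death genes, 4 were lower in KO. EDA2R, a death receptor of the TNF receptor family, showed the widest gap, with 68.1, 73.9, 65.6 and 54.6 normalized counts in KO and 282, 227, 334 and 223 in WT (-2.0 ± 0.17, adjusted p = 3.31e-05). AEN, an exonuclease of apoptosis, had 676, 689.7, 768 and 703 in KO and 1328, 1318, 1497 and 1299 in WT (-0.94 ± 0.09). The autophagy regulator DRAM1 and PHLDA3, an inhibitor of AKT, differed by -0.71 ± 0.13 and -0.61 ± 0.10. DRAM1 was not called with array weights or the deposited variance-stabilized values (-0.58 to -0.55), and PHLDA3 not without KO replicate 1 or WT replicate 1 or 4. The best-known apoptotic effectors were close to the limit or unresolved. BBC3, which encodes PUMA, had 352, 332, 338 and 389.8 in KO and 563, 484, 520.4 and 537 in WT. Its groups were separate and its adjusted p was 0.00345, but the difference of -0.57 ± 0.10 fell short of 1.5-fold. BAX, the pore-forming protein of the outer mitochondrial membrane, stood likewise at -0.57 ± 0.11 (adjusted p = 0.00809), with 1181 to 1345 in KO and 1533 to 2143 in WT. Without KO replicate 4 or WT replicate 2 both were called, and BAX also without KO replicate 2. PMAIP1 (NOXA) differed by -0.11 ± 0.20 and the death receptor FAS by -0.80 ± 0.29 with overlapping groups (adjusted p = 0.103). FAS had 57.4, 39.6, 55.1 and 36.7 in KO and 95.3, 105, 43.4 and 100.1 in WT, and without WT replicate 3 it was called at -1.1.

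Of 7 repair genes, 2 were lower. DDB2, which recognises ultraviolet lesions, had 829, 926, 868 and 1002 normalized counts in KO and 2036, 1618, 2024 and 2051 in WT (-1.09 ± 0.11, adjusted p = 9.81e-05). RPS27L, a ribosomal protein paralog, had 592, 500.1, 557 and 493 in KO and 765, 1083, 952 and 898 in WT (-0.78 ± 0.12). Both were separate in all libraries. XPC, which detects helix distortions, differed by -0.50 ± 0.09 (adjusted p = 0.00397), under the fold limit. RRM2B, the p53-inducible subunit of ribonucleotide reductase, overlapped between groups (-0.33 ± 0.25), and was called without WT replicate 3 (-0.60).

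Secreted, membrane and signalling targets held the largest single difference, and 6 of 31 were lower. GDF15, a secreted stress cytokine, had 33.1, 22.5, 27.6 and 51.2 normalized counts in KO and 208, 221, 284 and 260.5 in WT (-2.87 ± 0.23, adjusted p = 2.88e-05). PSTPIP2, a membrane-curving F-BAR protein, had 46.7, 36.4, 42.8 and 47.9 in KO and 123, 169.9, 163 and 119.5 in WT (-1.69 ± 0.17). Neither pair of groups overlapped. The cell surface protein IGDCC4 differed by -1.13 ± 0.19, the angiogenic factor PGF by -0.94 ± 0.16, the netrin receptor UNC5B by -0.70 ± 0.13 and the tetraspanin CD82 by -0.60 ± 0.12 (not called without KO replicate 1 or WT replicate 4). SERPINB5 (maspin), a serpin of epithelial cells, was higher, with 67.2, 36.4, 61.8 and 40.1 in KO and 19.1, 19.5, 11.6 and 14.3 in WT (1.59 ± 0.27, adjusted p = 0.00287).

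Of 23 metabolic targets 3 were lower, and of 25 remaining targets 4 were lower and 1 was higher. PLTP, a phospholipid transfer protein, differed by -1.54 ± 0.30, the stress sensor SESN1 by -0.75 ± 0.18 and CYFIP2, a subunit of the WAVE actin regulator, by -0.62 ± 0.14. SESN1 lost its call without KO replicate 3 or 4 or WT replicate 1, and CYFIP2 without KO replicate 1 or 3 or WT replicate 1 or 4. TRIM22, an antiviral ubiquitin ligase, had 141, 102, 105 and 114 normalized counts in KO and 249, 291, 325 and 239 in WT (-1.25 ± 0.15, adjusted p = 0.000349). INKA2, an inhibitor of the kinase PAK4, differed by -0.85 ± 0.10, MAST4 by -0.68 ± 0.11 and the cytidine deaminase APOBEC3C by -0.67 ± 0.09. APOBEC3C has close paralogs, among which the counting could divide reads. The keratin KRT15 was higher, with 35, 41.8, 39.0 and 36.7 in KO and 9.53, 7.96, 12.6 and 11.2 in WT (1.8 ± 0.22). TIGAR and FDXR, which act in redox and energy metabolism, were at -0.18 ± 0.16 and -0.54 ± 0.12 and were not called, FDXR because of the fold limit (adjusted p = 0.0127), which it passed without KO replicate 4 or WT replicate 2.

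**Figure D2:**
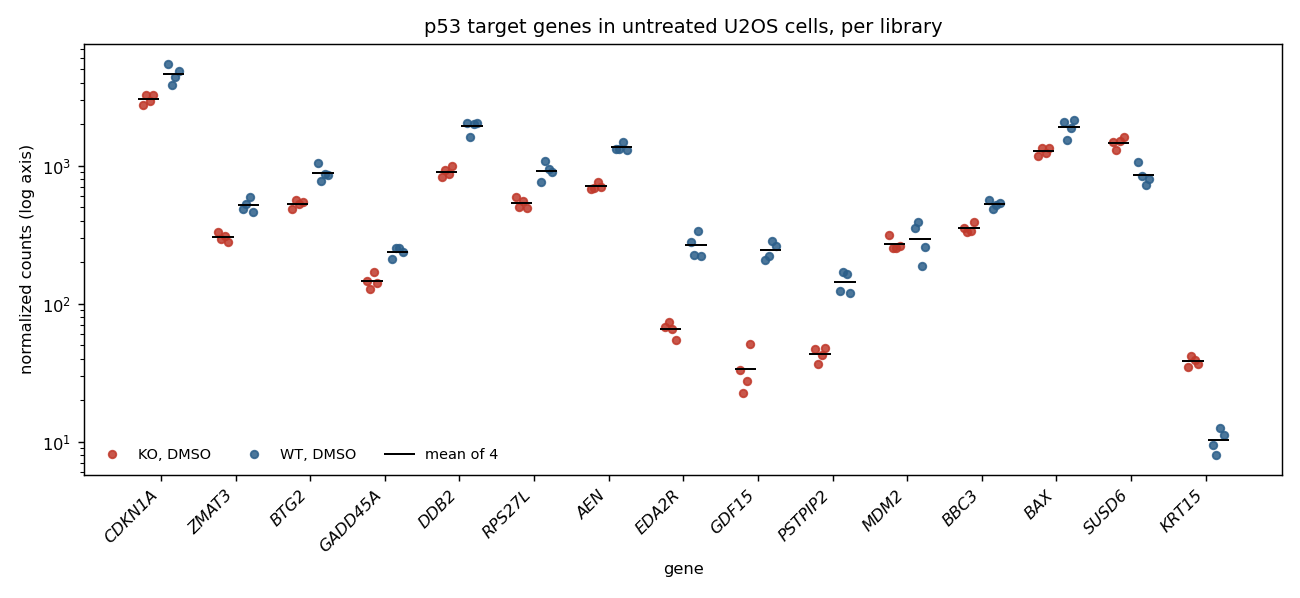
Normalized counts on a log axis for 15 p53 target genes in each library, KO on the left and WT on the right of each gene, with a line at the mean of 4. KO libraries lie below WT libraries for most of these 15 genes, overlap them for MDM2, and lie above them for SUSD6 and KRT15. The 15 are a selection, mostly of called genes. Over all 121 tested targets KO lay below every WT library in 50 and above in 4, against 10.9% and 7.41% of all tested genes.

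Stretches of 4 promoters are shown because they hold the p53 decamer motif upstream of a gene that was lower in KO. The motif was searched by its consensus, which reads the same on both strands, in RefSeq promoters on GRCh38.p14 that run from 250 bases before to 50 after a listed start. Among p53 targets lower in KO that had a promoter in the table, 4 of 21 (19%) held it, against 10 of 99 (10.1%) for all tested p53 targets, 6.29% for all genes lower in KO, 5.25% for tested genes and 6.54% of all 27305 promoters. In 1 of these 4 the match lay after the start and is not shown. Capitals mark the decamer and each sequence is written 5′ to 3′ on the gene's strand, for PLK2 at chr5:58460184-58460243 (minus), AEN at chr15:88621281-88621339 (plus), RPS27L at chr15:63157502-63157561 (minus) and PTCHD4 at chr6:48111198-48111242 (minus).
PLK2: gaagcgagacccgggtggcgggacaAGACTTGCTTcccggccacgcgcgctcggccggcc
AEN: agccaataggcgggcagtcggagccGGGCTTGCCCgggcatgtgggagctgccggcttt
RPS27L: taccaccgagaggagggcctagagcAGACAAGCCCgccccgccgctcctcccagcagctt
PTCHD4: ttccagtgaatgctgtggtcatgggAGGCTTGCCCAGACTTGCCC

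PTCHD4, a patched-domain protein that is not on the target list and was chosen after its values were seen, had 2 decamers side by side in the 20 bases before its RefSeq start. Pairs of decamers up to 13 bases apart stood in 8 of 27305 promoters (0.0293%), and PTCHD4 was the 1 gene lower in KO among them. It had 29.2, 31.1, 20.9 and 34.5 normalized counts in KO and 59.1, 67.2, 66.6 and 78.6 in WT (-1.22 ± 0.20, adjusted p = 0.00236), with no overlap. GENCODE release 29 places the gene at chr6:47878028-48068689, so this RefSeq start lies outside that model. A motif match describes the letters in the window and was not tested for binding.

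The same lines with etoposide gave 8 separate libraries. There 16.8% of tested genes were lower and 13.8% higher in KO. All 26 targets that were lower in DMSO were lower with etoposide too, with a median difference of -2.33. Over all targets, 98 of 121 (81.0%) were lower with etoposide and none was higher. GDF15 differed by -6.07 with etoposide, CDKN1A by -1.94 and EDA2R by -3.08. Targets not called in DMSO were lower as well: MDM2 reached -1.88, FAS -2.31 and RRM2B -2.46.

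The 3 targets that were higher in DMSO were lower with etoposide, with an etoposide difference minus DMSO difference of -2.47 ± 0.28 for SERPINB5, -2.63 ± 0.30 for KRT15 and -1.95 ± 0.14 for SUSD6 in a fit on the 16 libraries. Across all genes, 44 were called in opposite directions without and with etoposide, 29 higher then lower and 15 lower then higher. These genes were picked for their opposite calls in the same libraries, so the values describe them and carry no test.

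Several matrix and signalling genes were among those 29. CCN1 and CCN2, secreted matricellular proteins, were higher in KO in DMSO by 0.84 ± 0.12 and 0.83 ± 0.10 and were at -0.96 and -1.3 with etoposide. CCN2 had 4631, 4627, 4838 and 4334 normalized counts in KO and 3138, 2401, 2365 and 2502 in WT, with no overlap. NCKAP5, a microtubule-associated protein, had 91.5, 85.7, 88.4 and 91.3 in KO and 20.0, 8.85, 4.83 and 11.2 in WT (3.03 ± 0.33), against -1.3 with etoposide. EDNRA, an endothelin receptor, differed by 1.67 ± 0.19 in DMSO and by -1.11 with etoposide. CD34, a sialomucin of stem and endothelial cells, took the opposite course. It had 195, 223, 234 and 217 in KO and 542, 613, 668 and 667 in WT in DMSO (-1.51 ± 0.11), and differed by 1.46 with etoposide.

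**Figure D3:**
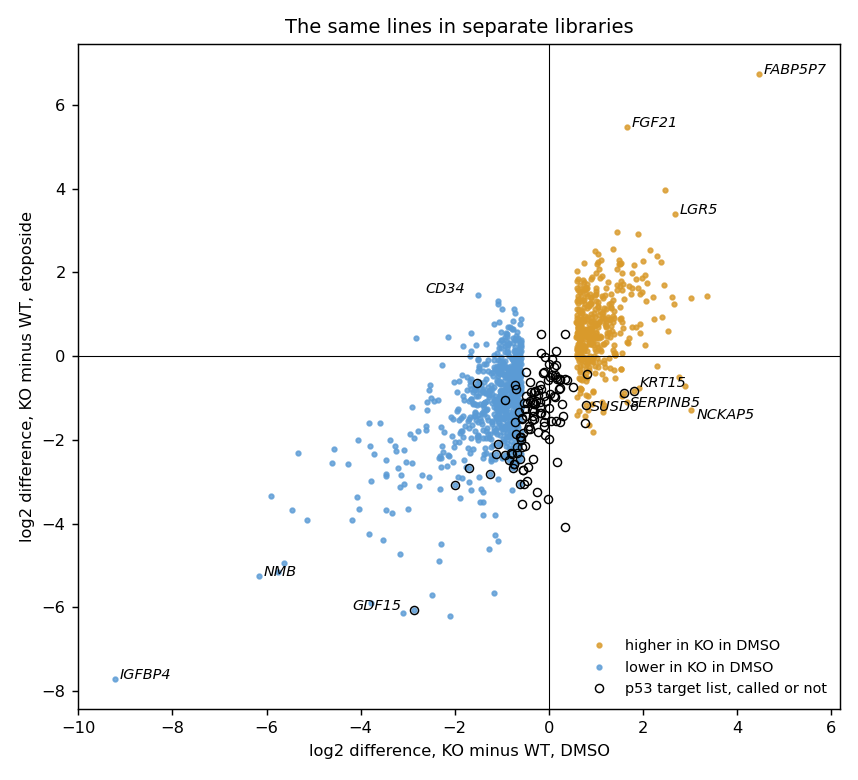
Log2 difference, KO minus WT, in DMSO (horizontal) and in etoposide (vertical) for genes called in DMSO and for the p53 target list (open circles). Most called genes lie in the lower left or upper right; SERPINB5, KRT15, SUSD6 and NCKAP5 lie in the lower right and CD34 in the upper left.

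Beyond the targets, 688 genes lower in DMSO were tested in both, of which 473 (68.8%) were lower with etoposide and 15 were higher. Of 376 higher genes that are not targets, 199 (52.9%) were higher and 26 were lower. Over the 14715 genes in both fits the differences correlated with r = 0.52 (Pearson) and rho = 0.46 (Spearman), a description across genes that come from the same 2 lines.

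HET cells, which hold 1 wild-type allele, show how these genes respond to etoposide in libraries outside the comparison. There 17.4% of tested genes rose and 14.6% fell. Of the 26 targets lower in KO, 24 rose, beside 90 of all 121 tested targets (74.4%). Of the remaining genes lower in KO, 216 of 676 (32%) rose and 125 (18.5%) fell. GDF15 rose by 6.15 on the log2 scale and CDKN1A by 3.53. UNC5B fell by 0.97 and PLTP was not called (-0.29). Among the 393 higher genes that are not targets, 108 of 355 tested rose (30.4%) and 79 fell (22.3%).

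None of the 12 largest falls was on the p53 target list. IGFBP4, a secreted binding protein of insulin-like growth factors, had 1.95, 4.28, 0.95 and 1.11 normalized counts in KO and 1889, 1525, 1674 and 1696 in WT (-9.22 ± 0.28, adjusted p = 2.76e-08). NMB, the neuropeptide neuromedin B, had 0.973, 2.14, 2.85 and 2.23 in KO and 196, 169, 273 and 216 in WT (-6.16 ± 0.26). Transcripts of both were nearly missing from every KO library. SLC25A20, the mitochondrial carnitine carrier, had no count in any KO library and 53.4, 65.5, 66.6 and 51.1 in WT, at least 19.2-fold lower against a floor of 3 counts per library. The homeobox gene DLX4 had 1 count in all of KO and 61.0, 59.3, 43.4 and 69.5 normalized counts in WT, a WT over KO ratio of 228 with an exact 95% interval of 40.5 to 9024 for counting error.

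More genes shared this pattern. ADAMTS7, a secreted metalloproteinase, had 0, 2.14, 0.95 and 1.11 in KO and 134, 84.9, 70.5 and 134 in WT (-5.76 ± 0.38). GTSF1, a factor of the piRNA pathway in germ cells, differed by -5.47 ± 0.29, the homeobox gene HOXB2 by -5.14 ± 0.23 and the choline dehydrogenase CHDH by -4.61 ± 0.38. The chemerin receptor CMKLR1 (-4.27 ± 0.38), FAM174B (-4.19 ± 0.46) and the GTPase RAC2 (-4.07 ± 0.27) followed. GAGE2E, a cancer-testis gene with near-identical copies, completed the 12 largest falls at -4.56 ± 0.69, and reads could be divided among its copies.

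A class of genes near 0 in KO was set after the values were seen: a mean under 10 normalized counts in KO and of at least 50 in WT. It held 22 genes, and no gene had the reverse pattern. With etoposide, 16 of the 22 had a mean under 10 in KO, and in all 22 every KO library was below every WT library. The share of all genes separated in this way with etoposide is not given here, while 16.8% of tested genes were called lower in KO there. The 22 were chosen for low values in the same KO line. The 4 members on chromosome 17 (IGFBP4, HOXB2, DLX4 and EPOP) were also under 10 in HET cells in DMSO, with means of 1.75, 4.82, 0 and 5.91, as were RAC2 and GAGE2E. In 10 of the 22, the HET mean was at least 50, among them NMB at 317, SLC25A20 at 184 and CHDH at 181. HOM cells in DMSO, whose libraries varied in composition, differed from HET. There the 4 chromosome 17 genes had means of 3598, 630, 261 and 278. In HOM 4 of the 22 were under 10, among them SLC25A20 at 0.52 and GTSF1 at 0.

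**Figure D4:**
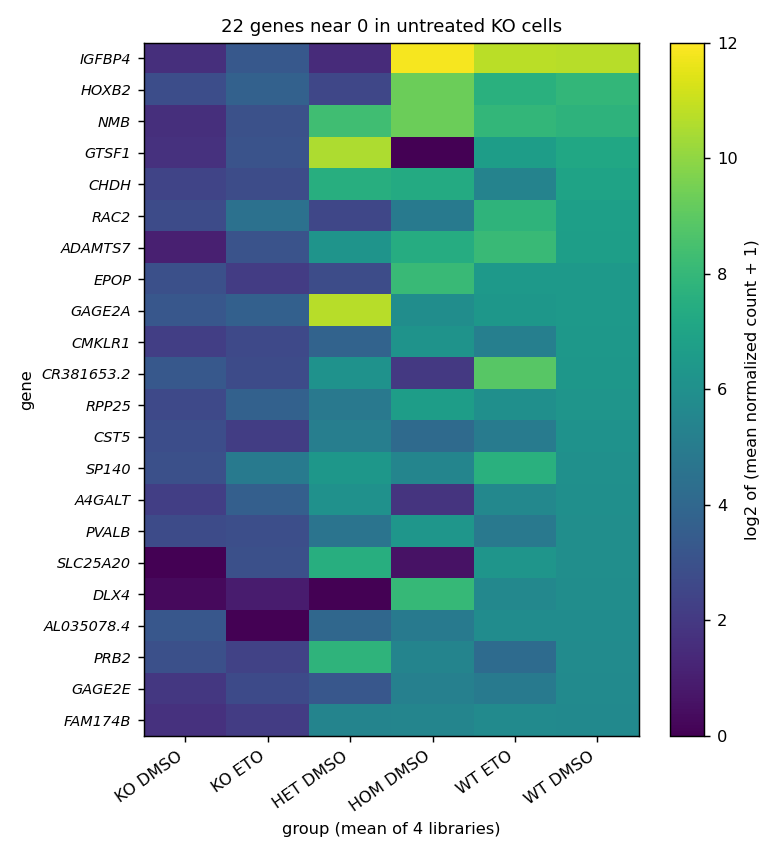
Mean expression, as log2(mean normalized count + 1), of the 22 genes near 0 in untreated KO cells, in KO and WT cells without (DMSO) or with (ETO) etoposide and in HET and HOM cells in DMSO, each a mean of 4 libraries. The KO DMSO column is dark throughout and KO ETO for 16 of 22 genes (SP140 reaches 29.2 and RAC2 21.5 normalized counts there), while HET and HOM columns are dark for some genes only; HOM DMSO rests on libraries that varied in composition, with mtDNA shares of 12.5% to 21.9%.

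Over all called genes, the levels in the HET libraries in DMSO are given without a test. Of the 732 lower genes, KO lay below every HET library in 404, and HET lay below every WT library in 345. Of the 396 higher genes, KO lay above every HET library in 288, and HET lay above every WT library in 95. For the 26 lower p53 targets these counts were 14 and 15. The genes were called on the same KO and WT libraries, which affects both kinds of count. The matching shares over all tested genes are not given here, so the counts have no reference and say nothing particular about HET.

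The 12 largest rises were mostly in genes with few transcripts in WT. EHF, an epithelial ETS transcription factor, had 100.3, 93.2, 105 and 92.4 normalized counts in KO and 11.4, 16.8, 9.66 and 8.17 in WT (3.02 ± 0.23, adjusted p = 1.62e-05). LGR5, a receptor that amplifies WNT signals, had 367, 308, 352 and 299.6 in KO and 96.3, 47.8, 29.9 and 48.0 in WT (2.68 ± 0.28). Both were separate in every library. BARX2, a homeobox gene, differed by 2.61 ± 0.17, TRIM29 by 2.45 ± 0.30, the epithelial trafficking GTPase RAB17 by 2.38 ± 0.29 and the adaptor GRB7 by 2.22 ± 0.26. GAD1, which makes GABA, was at 2.29 ± 0.33.

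FAM83H, a keratin-associated protein, was uneven within both groups, with 1841, 1625, 673 and 670.4 in KO and 322, 237, 61.8 and 128 in WT (2.77 ± 0.49, adjusted p = 0.00395). FABP5P7, a processed pseudogene of FABP5, had 101, 165, 197 and 46.8 in KO and 42.9, 0, 0 and 14.3 in WT (4.47 ± 1.1), and its reads may come from the parent gene. It lost its call without KO replicate 1, 2 or 3 or WT replicate 2. The mucin gene MUC3A (2.24 ± 0.35) also has close copies.

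Calls in the lists that follow stand against 2.65% higher and 4.9% lower among all tested genes. Genes of the cell cycle were almost never called. None of 50 G2 and mitosis genes and none of 31 homologous recombination and Fanconi genes was called in limma, with medians of 0.19 and 0.20 against 0.02 for all genes. At an unadjusted p below 0.05, 6 of the first list were higher and 2 lower, and 4 and 1 of the second, and voom called 0 in both. Of 50 S-phase genes, CHAF1A, a histone chaperone subunit, was the 1 called (0.62 ± 0.10), though not without KO replicate 2 or WT replicate 1 or 2. No gene was called in limma or voom among 23 cholesterol synthesis genes (2 higher and 4 lower at an unadjusted p below 0.05) and 13 mtDNA-encoded genes (0 at that level). The ATF4 stress response had 4 of 23 members higher and none lower: the hormone FGF21 (1.66 ± 0.26), the glutathione-degrading CHAC1 (0.79 ± 0.14), the lipoprotein receptor VLDLR (0.73 ± 0.12) and the serine synthesis enzyme PHGDH (0.59 ± 0.13), which was not called without KO replicate 2 or 4 or WT replicate 2 or 3.

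Growth factor and interferon lists moved in both directions. Of 25 immediate-early and AP-1 genes, 5 were lower, among them the ERK phosphatase DUSP5 (-1.34 ± 0.14), EGR2 (-1.27 ± 0.25), ETV4 (-0.93 ± 0.15) and EGR1 (-0.76 ± 0.16), and CCN1 and CCN2 were higher. Of 34 interferon-stimulated genes, 2 were lower and 4 were higher. BST2 (tetherin) had 14.6, 7.5, 12.4 and 12.2 normalized counts in KO and 72.4, 88.5, 130.3 and 82.7 in WT (-2.90 ± 0.26), and the restriction factor IFITM1 differed by -1.50 ± 0.27. IFI44L (1.53 ± 0.25), IFIT3 (1.18 ± 0.22), IFI44 (1.04 ± 0.24) and DDX60 (0.79 ± 0.23) were higher. IFI44 lost its call without KO replicate 1 or 3, and DDX60 without any 1 library other than WT replicate 2.

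Matrix genes and their proteases held called genes in both directions. Of 30 collagens and matrix genes 4 were lower and 3 higher, and of 28 extracellular proteases and inhibitors 7 were lower and 3 higher, against 4.9% lower and 2.65% higher among all tested genes. Their medians were -0.19 and -0.16. COL6A3, a collagen VI chain, had 2682, 2478, 2563 and 3045 normalized counts in KO and 9377, 11071, 8248 and 9975 in WT (-1.84 ± 0.11, adjusted p = 4.08e-06). FN1 (fibronectin) had 8100.0, 8135, 8932 and 10333 in KO and 22755, 26429.6, 17046 and 24717 in WT (-1.35 ± 0.14). The protease inhibitor TIMP1 had 14573, 19105, 16135 and 18492 in KO and 35749, 35010.5, 34587 and 46610.5 in WT (-1.15 ± 0.13). These 3 abundant transcripts were separate in all libraries and were lower with etoposide too, by -2.91, -2.31 and -1.82. LUM (lumican, -1.85 ± 0.24) and the collagenase MMP13 (-1.65 ± 0.21) were lower in DMSO and not called with etoposide.

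Higher matrix genes included THBS1 (thrombospondin 1), with 20559.5, 16980.2, 19751 and 19978 in KO and 9396, 7680.2, 4303 and 6351 in WT (1.53 ± 0.20). BGN (biglycan) was at 1.39 ± 0.35 and LOX, which crosslinks collagen, at 1.0 ± 0.23. Among proteases, ADAMTS5 (1.93 ± 0.27), ADAMTS1 (1.49 ± 0.40) and MMP15 (1.24 ± 0.21) were higher. BGN lost its call without any 1 KO library or WT replicate 2, LOX without KO replicate 1 or 3, and ADAMTS1 without KO replicate 1, 3 or 4 or WT replicate 4.

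In developmental signalling lists, calls ran in both directions. Of 34 WNT pathway genes 4 were higher and 1 lower, and of 33 TGF-beta and BMP genes 5 were higher and 3 lower, with medians of 0.06 and 0.09. LGR4, a paralog of LGR5, had 998, 704, 934 and 826 normalized counts in KO and 340.3, 227, 210.5 and 197 in WT (1.85 ± 0.18), and the ligand gene WNT10A and the antagonist SOSTDC1 were at 1.07 ± 0.19 and 0.97 ± 0.21. LEF1, a nuclear effector of WNT signals, was lower at -1.07 ± 0.12. BMP6 was higher (1.57 ± 0.15), as were the activin antagonist FSTL3 (1.0 ± 0.15) and ID3 (0.69 ± 0.10), while the receptor TGFBR2 (-1.0 ± 0.12), the BMP antagonist NOG (-0.73 ± 0.09) and LTBP2 (-0.71 ± 0.14) were lower. Of 45 homeobox genes, 4 were higher and 3 lower, with a median of -0.15. HOXA13 had 402, 337, 379 and 293 in KO and 96.3, 95.6, 75.3 and 70.5 in WT (2.05 ± 0.15), whereas HOXA7 in the same cluster was at -0.59 ± 0.10 and lost its call without KO replicate 1 or 3 or WT replicate 4.

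Of 22 tested cancer-testis genes, normally active in germ cells, 5 were called lower, and of 22 imprinted genes 3, against 4.9% of all tested genes. None was called higher, against 2.65%, and the medians were -0.04 and -0.16. MAGEC1 had 713, 796, 765 and 763 normalized counts in KO and 2010.2, 1445, 1207 and 1604 in WT (-1.02 ± 0.14), and PRAME was at -1.02 ± 0.09. CT45A1 differed by -4.03 ± 0.26, and its copy CT45A3 had no count in KO, at least 13.5-fold lower; reads could be divided among CT45A copies. DIRAS3, a maternally imprinted RAS-like GTPase, differed by -1.58 ± 0.21, and PHLDA2 by -1.42 ± 0.18.

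Marker lists of cell types were read beside these results. Of 17 osteoblast lineage markers in the matrix 9 were tested, 1 was higher and 1 lower, and 3 had no count in the 8 libraries. Of the 9, 7 were below 0, and their median was -0.31. The summed level of the list, most of it SPARC, was 29937 to 34361 in KO and 41222 to 44512 in WT. SPARC averaged 29854 in KO and 40826 in WT, RUNX2 482 and 627, while IBSP and DMP1 were at 0 in both groups. Epithelial markers had 5 of 14 tested members higher and 1 lower, and their summed level was 48371 to 66672 in KO and 38545 to 50782 in WT. KRT14 had 2137, 2596, 2175 and 2449 in KO and 768, 739.7, 941 and 889.6 in WT (1.49 ± 0.11). EPCAM (1.37 ± 0.19), the repressor OVOL2 (1.0 ± 0.18), KRT81 (0.69 ± 0.13) and EHF were higher, and CLDN4 was lower (-0.71 ± 0.12). The defining marker CDH1 stayed near 10.8 normalized counts in KO and 7.78 in WT, and GRHL2 under 1 in both. Blood markers were tested in 3 of 19 cases and none was called in limma or voom (1 at an unadjusted p below 0.05), with a summed level of 188 to 211 in KO and 183 to 239 in WT. Endothelial and neural markers each had 1 member higher and 1 lower, of 8 and 10. The part of these markers in the other results was not tested.

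The differences were also ordered by position along the chromosomes. Chromosome 22 had the lowest median difference, -0.20, with 40 of 385 tested genes lower (10.4%) and 2 higher, and its median with etoposide was -0.26. The median of every other chromosome lay between -0.07 and 0.11. Runs of at least 4 neighbouring tested genes called in 1 direction were found 4 times: KRT34, KRT15, KRT14 and KRT16 on chromosome 17 and 2 runs on chromosome 2 were higher, and CT45A1, CT45A3, CT45A5 and CT45A7 on the X chromosome were lower. The keratin run and the CT45A run hold similar paralogs, among which reads could be divided. KRT34 lost its call without any 1 KO library or WT replicate 4, which shortens the keratin run to 3 genes.

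Of the chromosome 2 runs, CNOT9 to BCS1L lies just before a dense stretch and CHPF to SLC4A3 closes it. In the first run CNOT9 lost its call without KO replicate 1 or 3 or WT replicate 1, 2 or 4, and BCS1L without KO replicate 2 or 4. In the 31 tested genes at chr2:218710845-219641980, chosen as the stretch of the chromosome with the largest median, 29 differences were above 0, 17 genes were called higher and none lower, with a median of 0.78. With etoposide the median was 0.64, and 26 of 31 were above 0. TUBA4A, an alpha-tubulin gene, had 1863, 2074, 1742 and 2021 normalized counts in KO and 930.3, 508, 642 and 801 in WT (1.45 ± 0.17). GMPPA, a regulator of GDP-mannose synthesis, had 3359, 4089.8, 3364 and 4167 in KO and 1859, 1454, 1513 and 1938 in WT (1.15 ± 0.12). CHPF, which polymerises chondroitin, differed by 0.99 ± 0.13 and the cytoskeletal adaptor OBSL1 by 1.04 ± 0.14, each separate in all libraries. ABCB6, a porphyrin transporter in the same stretch, was higher in DMSO (0.94 ± 0.24) and lower with etoposide (-1.80), and lost its DMSO call without any 1 KO library. Measured as the median deviation of the 31 genes from the series mean, the KO libraries in DMSO lay at 0.48 to 0.69 log2, the HET libraries at -0.61 to -0.17, the HOM libraries at 0.10 to 1.29 and the WT libraries at -0.34 to 0.09. With etoposide the KO libraries lay at 0.30 to 0.40, the HOM libraries at -0.37 to -0.02 and the WT libraries at -0.42 to -0.20. With etoposide HOM replicate 4, at -0.02, lay above the WT range. Only in DMSO did all HOM libraries lie above every WT library, and there the HOM libraries varied in composition. The lowest of them, replicate 1 at 0.10, had an mtDNA share of 12.5%, and replicate 4, at 1.29, had 21.9%. The part of library composition in the HOM levels was not tested.

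**Figure D5:**
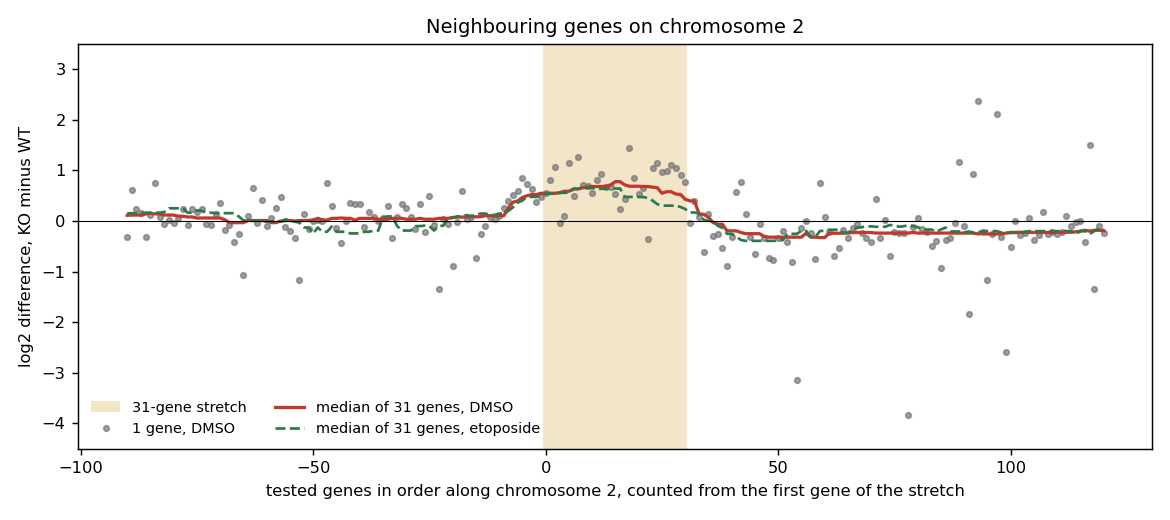
Log2 difference, KO minus WT in DMSO, of tested genes in their order along chromosome 2 (points), with the running median of 31 genes in DMSO (solid) and in etoposide (dashed). The shaded 31-gene stretch has a median of 0.78 in DMSO and 0.64 in etoposide, and the median is near 0 further left and just below 0 further right.

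Of the 23 chromosomes, 8 had a 31-gene stretch with a median of at least 0.4 in size. Each kept its sign with etoposide, but so did the stretch with the largest median on all 23 chromosomes, down to a median of 0.14. After chromosome 2 came chromosome 15 (0.53), chromosome 19 (0.48), chromosome 9 (-0.45) and chromosome 22 (-0.43, chr22:33162226-37569405). The chromosome 22 stretch had 30 of 31 differences below 0 and 8 called lower, including HMOX1, the heme oxygenase (-0.64 ± 0.10, not called without WT replicate 3). Its medians in the DMSO libraries were -0.37 to -0.02 in KO, -0.27 to -0.12 in HET, 0.28 to 1.37 in HOM and 0.07 to 0.45 in WT. With etoposide they were -0.33 to -0.22 in KO, -0.35 to -0.14 in HET, -0.09 to 0.27 in HOM and 0.07 to 0.21 in WT. The HOM libraries in DMSO varied in composition. Of the 248 genes in the 8 stretches 60 were called, against 1128 of all 14949 tested genes (7.55%). The 60 made up 5.32% of all calls, a share with another base that is not comparable with 7.55%. These stretches were chosen on the values themselves and carry no test, and copy number was not measured.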

How the data were processed

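Poly-A RNA was sequenced from U2OS cells of 4 p53 genotypes. Per the submitters' processing notes the authors used kallisto and DESeq2 with GRCh38 (hg38); their versions are not given in the sources used here. Values in the deposited matrix are variance-stabilized and log2-like, with a floor of 4.43. In their deposited result table the authors give a mean signal, a log2 fold change with 2 score columns (its error and a Wald statistic), and raw and adjusted p-values. The matrix was inverted to normalized counts, whose means differed from the authors' mean signal by at most 4.4e-14 in relative terms. Without the library scaling, whole counts resulted (within 0.01) in 100.0% of values, with 24871 symbols counted in the 8 libraries. Replicate pairs had a chi-square per degree of freedom of 4.1 to 67.75, so none was a duplicate.

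The test was limma 3.58.1 (R 4.3.3), moderated test with trend on log2(normalized count + 1), group only, 8 libraries, two-sided, Benjamini-Hochberg over 14949 genes. The etoposide libraries of KO and WT and the HET libraries were fitted the same way, separately. The difference of differences was fitted on 16 libraries after values were seen. The main fit was run on simulated counts with known changes and the same spread beyond counting error in every gene. Real genes differed in spread, so that run checks the code and not the error rate of the calls. No value was dropped or imputed. Floors and intervals cover counting error only.

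Named genes were CDKN1A, MDM2, BBC3, BAX and GDF15, the 12 largest rises and falls with a mean of at least 50 and no overlap, up to 4 called members per list and direction, and genes of runs; others were chosen after their values were seen, including list members not called. Some genes that this rule names are not reported here. The members and lists were chosen with earlier results of these data known. Positions came from GENCODE release 29 on GRCh38 and promoters from RefSeq on GRCh38.p14. Same-numbered replicates were checked for pairing, and alternatives were the pseudocount, filters, scalings, transformations, other libraries in the fit, weights, a replicate block and each library left out.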

Additional observations from a re-analysis of the deposited data

Results flagged for a closer look

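Of 318 groups of 4 values examined among the named genes and library measures, 16 had 1 library far from the other 3, and chance alone flags about 1 in 20 groups. In KO these were MDM2 in replicate 1 (313.4 normalized counts, others 251.7 to 260.6), CHDH and FGF21 in replicate 2 (1.071 and 121.0), DLX4 and GAGE2E in replicate 3 (0.9503 and 10.45) and IFITM1 in replicate 4 (27.84). In WT replicate 1, LEF1 was at 504.2 and DIRAS3 at 39.08. In WT replicate 2, DDB2 was at 1618, MMP13 at 112.4 and KRT16 at 36.28. AEN (1497), FAS (43.45) and PRDX1 (9265) stood apart in WT replicate 3, and DRAM1 (139.9) and TIMP1 (46610.5) in WT replicate 4. No single library held most of them.

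For 16 named genes the KO minus WT difference had opposite directions without and with etoposide, and they were picked for that. The difference of the differences (ETO minus DMSO, log2, from limma) is therefore a description with no test. It was -4.33 for NCKAP5, -3.61 for KRT34, -2.77 for EDNRA, -2.74 for ABCB6, -2.69 for ADAMTS5, -2.63 for KRT15, -2.50 for MMP3 and -2.47 for SERPINB5. IFIT3 followed at -2.35, NEFL at -2.21, CCN2 at -2.13, SUSD6 at -1.95, CCN1 at -1.80 and DDX60 at -1.39. In the other direction GAP43 was at 2.13 and CD34 at 2.97.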

How the results depend on the processing

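In place of 396 higher and 732 lower genes, no fold limit gave 630 and 1103, and limma array weights gave 630 and 1013. The deposited variance-stabilized values gave 286 and 549, and a filter of at least 50 normalized counts gave 307 and 553. A fit on 28 libraries, without HOM DMSO, gave 565 and 902. The 3 p53 targets that were higher became 5 with 28 libraries in 1 fit and 1 at a filter of at least 50 normalized counts, and the 26 lower targets became 40 with no fold limit. Leaving out 1 library in turn gave 292 to 424 higher and 605 to 751 lower genes, 3 to 4 higher and 21 to 32 lower p53 targets, and 426 to 519 lower and 154 to 205 higher genes shared with etoposide (499 and 199 with all libraries). Without the shallow HET etoposide replicate 2, 240 of the lower genes and 24 of the lower p53 targets rose, as with it. The authors' deposited table has 519 higher and 954 lower genes at the same thresholds, and 1084 of the 1128 calls made here are among them, all in the same direction.

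Same-numbered replicates did not deviate together (correlations of -0.16, -0.22, -0.06 and 0.07), and the main fit was made without pairing. Such correlations cannot exclude a small effect shared by replicate number. With the replicate number as a block, 336 genes were higher and 638 lower, and 26 p53 targets were lower and 3 higher.

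No named gene changed direction in 2944 values under 19 alternatives. Of the 140 called ones, 102 kept the call throughout. Leaving out 1 library changed the call of 37 named genes. The largest number lost was 22 without KO replicate 1 and 20 without KO replicate 3, and the smallest 9 without WT replicate 3. Among genes of the lists under other observations, TNFAIP3 lost its call without any 1 library other than WT replicate 1, HIST2H2AC without any KO library or WT replicate 1 or 2, and HLA-C without any 1 library other than KO replicate 2 or WT replicate 3. VWF lost it without KO replicate 2, 3 or 4 or WT replicate 2, 3 or 4, PECAM1 without KO replicate 1, 2 or 3 or WT replicate 2, 3 or 4, and PRDX1 without KO replicate 1 or WT replicate 1, 2 or 4. HIST1H1C lost it without KO replicate 1 or WT replicate 3, MMP3 and AKR1C2 without KO replicate 3, and GAP43 without WT replicate 2 or 4. Array weights ended the calls of BCS1L, BMF, CHAF1A, DRAM1, GADD45A, PHGDH, PLK2, SLC4A3 and VWF. The variance-stabilized values ended those of ABCB6, BNIP3, CD82, CNOT9, DDX60, DRAM1, HIST2H2AC, HOXA7, OVOL2, PECAM1, PLK3, SESN1 and VWF. The block ended those of DDX60, GAP43, HIST2H2AC, TNFAIP3 and VWF. The cause was not tested. Genes with few counts have wide errors, and their differences depend on the pseudocount.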

Other observations

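Further lists gave values not described above. In the BCL2 family, HRK was lower (-0.85 ± 0.14) and BMF and BNIP3 were higher (0.72 ± 0.11 and 0.65 ± 0.10) among 15 tested members. Of 24 NRF2 targets and antioxidant enzymes 3 were higher: PRDX1 (0.60 ± 0.13) and the aldo-keto reductases AKR1C1 (1.99 ± 0.42) and AKR1C2 (1.72 ± 0.39), which are near-identical copies. HMOX1 was the 1 lower member. Of 18 NF-kB targets and cytokines, the chemokine CCL2 (-0.95 ± 0.15) and TNFAIP3 (-0.81 ± 0.22, groups overlapping) were lower and the stromelysin MMP3 was higher (1.56 ± 0.35).

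ALDOC, a glycolytic aldolase, had 333, 316, 373 and 369 normalized counts in KO and 1035, 890.1, 1000.3 and 1127 in WT (-1.54 ± 0.11), and was the 1 called among 30 glycolysis and hypoxia genes. EDEM1, which marks misfolded glycoproteins for degradation, was the 1 called of 20 unfolded protein response genes (-0.89 ± 0.11), and HLA-C the 1 called of 13 antigen presentation genes (-0.61 ± 0.16). In the IGF system IGFBP5 was lower (-0.73 ± 0.12) and STC1 higher (1.05 ± 0.16). Of 19 replication histone genes 4 were lower, among them HIST1H1C (-0.62 ± 0.10), and HIST2H2AC was higher (0.62 ± 0.15); poly-A selection captures such transcripts poorly. The neural markers NEFL and GAP43 were at 0.77 ± 0.10 and -1.0 ± 0.24, and the endothelial markers VWF and PECAM1 at 0.72 ± 0.20 and -1.33 ± 0.35.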
